A study of Homo sapiens with 12 samples.

Results

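Scavenger receptors are cell-surface and lysosomal membrane proteins that bind modified lipoproteins, fatty acids, glycans, ferritin and other ligands and carry them into the cell. The class A receptors SCARA3, COLEC12 and SCARA5 have a collagen-like stalk on the outside of the cell. The class B receptors SCARB1, SCARB2 and CD36 are anchored in the membrane at both ends and hold a lipid-binding tunnel. These 6 genes, of 29696 with expression values, were described in A375 cells with and without knockdown of ALKBH5, the demethylase that removes N6-methyladenosine (m6A) from RNA. SCARA3 and COLEC12 were chosen by their low expression in the knockdown cells, COLEC12 also by its entry in the table of differential m6A peaks, so their differences are given as descriptions without a test. SCARA5, SCARB1, SCARB2 and CD36 were taken as family relatives of that pair.

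A375 cells are an established line from a human melanoma. The shALKBH5 group (genotype label ALKBH5 knockdown) received a lentiviral short hairpin RNA against ALKBH5, and the shCtrl group (genotype label wild type) a control hairpin, so both groups carried a lentivirus. The study used several ALKBH5 hairpins, and which of them the sequenced cells carried is not given in the sources used here. Each group had 3 input libraries of poly(A) RNA, which give the expression values, and 3 libraries of RNA precipitated with an m6A antibody (MeRIP-Seq), which the authors combined with the inputs into 1 peak list per group. No label says that the replicates came from separate cultures, so p-values measure only the spread between these libraries.

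Expression was in FPKM, which scales the fragments of a gene by its length and by library size. FPKM summed to 221946 to 223231 per shALKBH5 library and to 212760 to 218966 per shCtrl library, and the read depth is unknown. Differences were tested with limma on log2(FPKM + 0.1) over the 12985 genes that averaged 0.5 FPKM or more, with Benjamini-Hochberg adjustment. In bulk RNA, fewer cells expressing a gene and less RNA per cell cannot be told apart. ALKBH5 itself was at 3.39, 3.92 and 3.12 FPKM in the shALKBH5 libraries and at 19.3, 17.8 and 17.6 FPKM in the shCtrl libraries. Its log2 fold change was -2.36 (SE 0.0887, limma adjusted p = 1.276e-06), and the groups did not overlap.

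SCARA3 and COLEC12 were both expressed in control cells and much lower in the knockdown cells, whereas SCARA5, SCARB1 and SCARB2 were higher. SCARA3 was 12.3 times and COLEC12 19.6 times as high in shCtrl as in shALKBH5 cells by mean FPKM. SCARA5 was 2.42 times, SCARB2 1.65 times and SCARB1 1.29 times as high in shALKBH5 as in shCtrl cells. CD36 was near 0 in both groups.

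**Figure D1:**
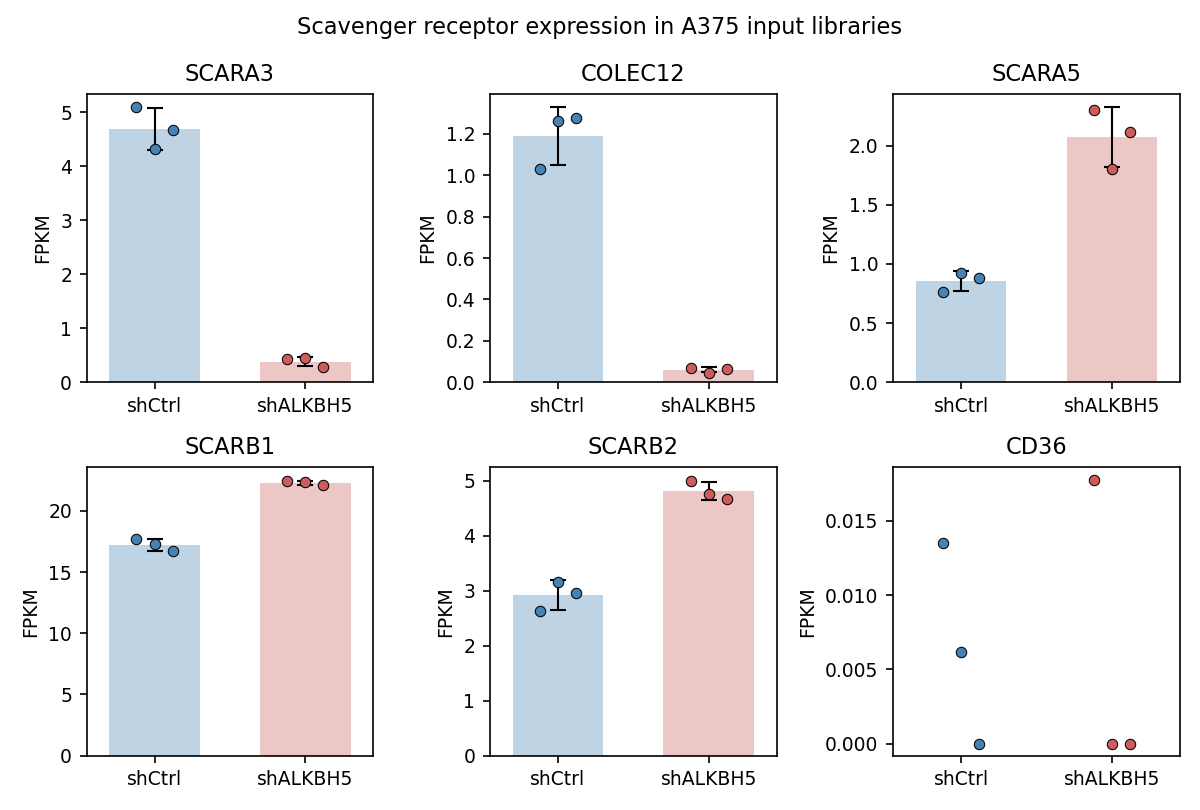
Expression of the 6 scavenger receptor genes in FPKM (linear axes, each with its own range) in the 3 shCtrl and 3 shALKBH5 input libraries. Points are libraries, and bars and whiskers are the mean and SD of 3, left out for CD36, which was listed at 0 in 3 of 6 libraries. The groups do not overlap for the 5 expressed genes.

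SCARA3 (ENSG00000168077, chromosome 8, 27633868 to 27676776, plus strand) encodes a class A receptor that is induced by oxidative stress and protects cells from reactive oxygen species. SCARA3 was at 5.09, 4.31 and 4.67 FPKM in the shCtrl libraries. It was at 0.426, 0.438 and 0.281 FPKM in the shALKBH5 libraries. Every knockdown library lay below every control library, and the lowest control value was still far above the highest knockdown value. The means were 4.69 ± 0.389 FPKM in shCtrl and 0.382 ± 0.0878 FPKM in shALKBH5 cells (SD, n = 3). The log2 fold change was -3.33 (SE 0.156), and 4 of the 12985 tested genes had a lower one.

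COLEC12 (ENSG00000158270, chromosome 18, 316737 to 500722, minus strand) encodes a membrane-bound collectin, a receptor whose C-type lectin domain binds sugars on microbes and on cells and which also takes up oxidised LDL. COLEC12 was at 1.03, 1.26 and 1.28 FPKM in the shCtrl libraries and at 0.0708, 0.0460 and 0.0653 FPKM in the shALKBH5 libraries. Again no knockdown library came near the control range. The means were 1.19 ± 0.139 FPKM in shCtrl and 0.0607 ± 0.0131 FPKM in shALKBH5 cells (SD, n = 3). The log2 fold change was -3.00 (SE 0.205), with 12 tested genes lower. This value lies below the fold of the means because the added 0.1 FPKM is larger than the COLEC12 level of the knockdown cells. SCARA3 and COLEC12 entered the tested genes only through their shCtrl libraries, since their shALKBH5 means were under the minimum of 0.5 FPKM.

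SCARA5 (ENSG00000168079, chromosome 8, 27869883 to 27992673, minus strand), the class A receptor for ferritin, went the other way. SCARA5 was at 2.30, 1.80 and 2.11 FPKM in the shALKBH5 libraries and at 0.765, 0.922 and 0.881 FPKM in the shCtrl libraries. All 3 knockdown libraries were above all 3 control libraries. The means were 2.07 ± 0.252 and 0.856 ± 0.0814 FPKM (SD, n = 3), and the log2 fold change was 1.18 (SE 0.126, limma adjusted p = 1.543e-04). Among tested genes 497 had a higher log2 fold change.

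SCARB1 (ENSG00000073060, chromosome 12, 124776856 to 124882668, minus strand), the HDL receptor that takes up cholesteryl esters, had the highest level of the 6 genes. SCARB1 was at 22.4, 22.3 and 22.1 FPKM in the shALKBH5 libraries and at 17.7, 17.3 and 16.7 FPKM in the shCtrl libraries. The spread within each group was small beside the gap between them. The means were 22.3 ± 0.173 and 17.2 ± 0.512 FPKM (SD, n = 3), with a log2 fold change of 0.37 (SE 0.0410, limma adjusted p = 1.841e-04). In size this was under the median absolute log2 fold change of 0.55 among all genes that passed the test.

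SCARB2 (ENSG00000138760, chromosome 4, 76158737 to 76234536, minus strand) encodes a lysosomal membrane protein that carries an enzyme to the lysosome. SCARB2 was at 5.00, 4.76 and 4.67 FPKM in the shALKBH5 libraries and at 2.63, 3.16 and 2.96 FPKM in the shCtrl libraries. The lowest knockdown library was above the highest control library. The means were 4.81 ± 0.170 and 2.92 ± 0.269 FPKM (SD, n = 3), and the log2 fold change was 0.71 (SE 0.0818, limma adjusted p = 2.330e-04).

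CD36 (ENSG00000135218, chromosome 7, 80369575 to 80679277, plus strand), the receptor for long-chain fatty acids, oxidised LDL and thrombospondin, was barely detected. CD36 was listed at 0.0177, 0 and 0 FPKM in the shALKBH5 libraries and at 0.0135, 0.00618 and 0 FPKM in the shCtrl libraries. The groups overlapped, the gene was under the minimum for testing, and no fold change is given. Without that minimum the limma adjusted p was 0.948, and at these levels a difference was not detectable.

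Broad change of expression is the background to these counts. Of all tested genes 61.0% passed an adjusted p of 0.05, 34.7% higher and 26.2% lower in shALKBH5 cells, and in 67.0% the 3 libraries of one group did not overlap those of the other. When libraries were rescaled by their median ratio the balance turned, with 3756 genes higher and 3919 lower against 4509 and 3408, while SCARA5, SCARB1 and SCARB2 stayed higher and past the threshold. The 3 relatives that could be tested, SCARA5, SCARB1 and SCARB2, all passed and all were higher. The groups did not overlap for 5 of the 6 genes, a count that includes SCARA3 and COLEC12, which were chosen for it. The median log2 fold change of all tested genes was 0.09. A pass or a gap between the groups was therefore common in these libraries and does not by itself set a gene apart. The size of the SCARA3 and COLEC12 differences was uncommon, but it was also what they were selected on.

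**Figure D2:**
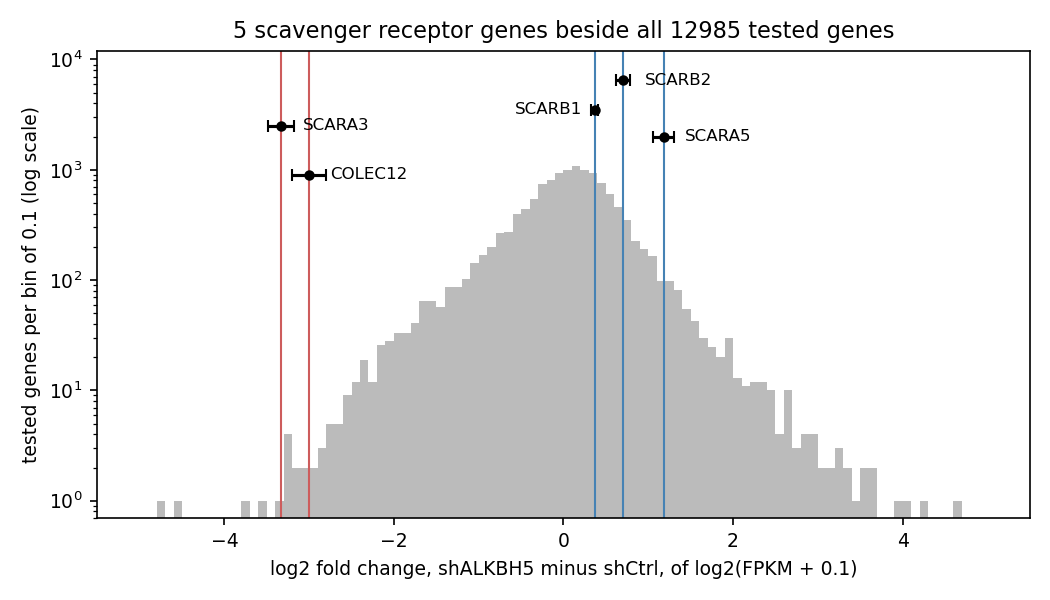
Histogram (log-scale counts) of the log2 fold change, shALKBH5 minus shCtrl, of log2(FPKM + 0.1) for all 12985 tested genes, with vertical lines for 5 scavenger receptor genes and points with standard errors from the limma fit. SCARA3 (-3.33) and COLEC12 (-3.00) lie in the lower tail, and SCARB1 (0.37), SCARB2 (0.71) and SCARA5 (1.18) lie above 0.

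The order of the 6 levels changed between the groups, but only through SCARA3 and COLEC12, which were chosen by their low shALKBH5 values. SCARB1, SCARB2, SCARA5 and CD36 kept the same order among themselves. FPKM is scaled by transcript length, so levels of different genes can be set side by side. In shCtrl cells the order of mean FPKM was SCARB1, SCARA3, SCARB2, COLEC12, SCARA5 and CD36. In shALKBH5 cells it was SCARB1, SCARB2, SCARA5, SCARA3, COLEC12 and CD36. No neighbours in either order overlapped in their 3 libraries, and the closest were COLEC12 and SCARA5 in shCtrl cells, 1.39-fold apart. SCARA3 stood next to SCARB1 in control cells, 1.61-fold above SCARB2, and below SCARA5 in knockdown cells, where SCARA5 was 5.43-fold above it.

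Among the class A receptors SCARA3 led in control and SCARA5 in knockdown cells, an order that rests in large part on the SCARA3 values it was chosen by. SCARA3 was 4.68 to 6.66 times as high as SCARA5 within the shCtrl libraries. SCARA5 was 4.11 to 7.53 times as high as SCARA3 within the shALKBH5 libraries. Summed over the 6 genes, expression came to 26.5 to 27.2 FPKM in shCtrl and to 29.2 to 30.3 FPKM in shALKBH5 libraries. SCARB1 alone made up 63.0% to 65.0% of that sum in shCtrl and 74.2% to 76.0% in shALKBH5 libraries. The higher share rests on SCARA3 and COLEC12, which were chosen by their low shALKBH5 values. SCARB2 and SCARA5 rose by more than SCARB1, 1.65 and 2.42 times against 1.29 times.

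SCARA3 and SCARA5 lie 193.1 kb apart on chromosome 8, on opposite strands, and moved in opposite directions. The tested genes between them were CCDC25, with a log2 fold change of 0.17 (limma adjusted p = 0.247), and PBK, a mitotic kinase, with -1.87 (limma adjusted p = 9.990e-06). CLU, which encodes the chaperone clusterin and ends 19.17 kb below SCARA3, was at 3.48 FPKM in shALKBH5 and 3.64 FPKM in shCtrl cells (log2 fold change -0.06, limma adjusted p = 0.524). Within 500 kb of the pair, 7 other genes were tested, of which 2 were higher, TRIM35 and ELP3, and 1, PBK, was lower. The large SCARA3 difference was therefore not seen at its nearest tested neighbours CLU and CCDC25, and ELP3, the nearest tested gene beyond SCARA5, rose by 0.18 on the log2 scale (limma adjusted p = 0.0231).

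**Figure D3:**
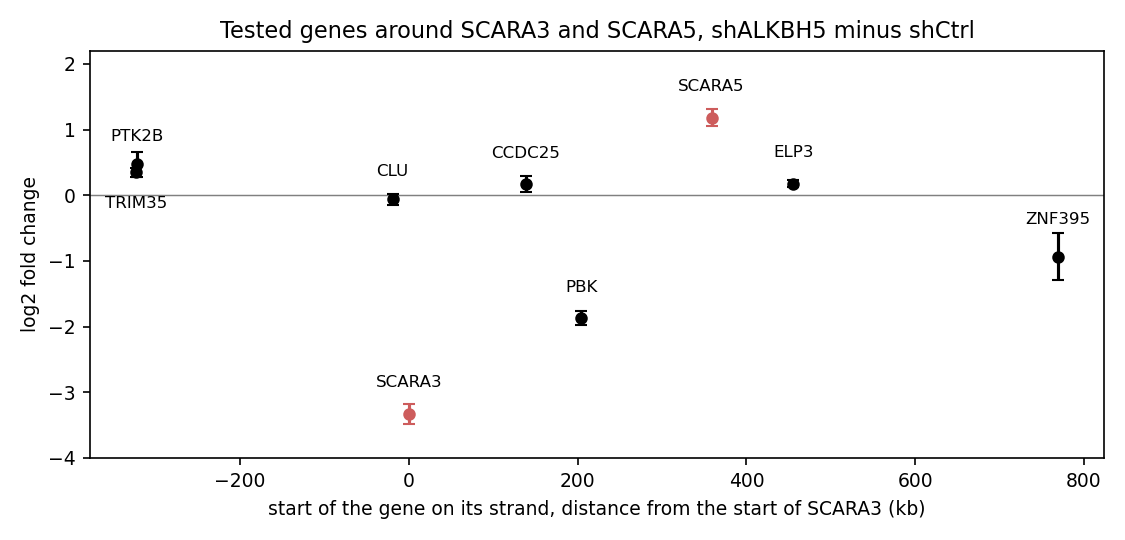
Log2 fold change (shALKBH5 minus shCtrl, with SE) of the 9 tested genes from 500 kb below SCARA3 to 500 kb above SCARA5, against the distance of each gene's start from that of SCARA3 in kb. SCARA3 and SCARA5 are in red, and the genes nearest to SCARA3 lie close to 0.

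The nearest tested genes around COLEC12 on chromosome 18 were USP14 (log2 fold change -0.58, limma adjusted p = 0.0011) and TYMS, the thymidylate synthase gene (-1.57, limma adjusted p = 2.396e-07), both lower in shALKBH5 cells but by less than COLEC12. SCARB2 lies between NUP54 (0.02, limma adjusted p = 0.873) and STBD1, a glycogen-binding protein gene (-1.62, limma adjusted p = 3.456e-05), so neither neighbour was higher as SCARB2 was. For CD36 the nearest tested genes were MAGI2-AS3 (0.03, limma adjusted p = 0.866) and SEMA3C (0.18, limma adjusted p = 0.251).

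To see which genes had a profile most like that of SCARA3 or COLEC12, the log2(FPKM + 0.1) values of each gene were centred on their mean over the 6 input libraries and compared by root mean square distance with the 12984 other tested genes. Among the genes closest to SCARA3 were AL606500 (distance 0.140), TRIL (0.20) and CPA4 (0.213), a carboxypeptidase gene. The genes closest to COLEC12 were ARHGDIB (0.0979), TRIL (0.123), RRBP1 (0.134) and SH3BP4 (0.137). TRIL, an accessory protein gene of Toll-like receptor signalling, was in both sets. COLEC12 was the 10th closest gene to SCARA3, and SCARA3 the 28th closest to COLEC12 (distance 0.299). The likeness rests mainly on the difference between the groups, on which SCARA3 and COLEC12 were both selected, so their closeness to each other follows from that choice. ARHGDIB averaged 26.9 FPKM in shCtrl and 3.45 FPKM in shALKBH5 cells, above the levels of COLEC12.

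For m6A, each group had a list of peaks in which the precipitated RNA was enriched over input, with the fold enrichment and log10 p as the peak caller gave them. The shALKBH5 list held 46039 peaks with a median fold enrichment of 5.31, and the shCtrl list 44304 peaks with a median of 5.25. With 1 list per group no difference between peaks has a replicate check. A separate table of differential peaks held 6513 peaks over all genes, 3 of them in the 6 receptor genes. The share of all genes with such a peak was not counted here. Peak spans are genomic and include introns. The 6 genes carried 14 peaks in the shALKBH5 list, of which 9 were annotated to the 3' UTR, and 18 peaks in the shCtrl list, of which 12 were. Over all peaks 45.5% of the shALKBH5 and 46.2% of the shCtrl list were annotated there. On the same strand, 12 of the 14 touched a shCtrl peak over 1 bp or more, and 12 of the 18 touched a shALKBH5 peak. With a reciprocal overlap of 50%, 8 peaks of each list were shared. Over all peaks, 78.0% of the shALKBH5 and 81.2% of the shCtrl list touched the other list, and 51.6% and 53.6% were shared at 50%.

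With every listed peak counted, SCARA3 and COLEC12 each had 3 peaks in the shALKBH5 and 5 in the shCtrl list. SCARA5 had 2 peaks in the shALKBH5 and 4 in the shCtrl list although its expression was higher in shALKBH5 cells. SCARB1 had 3 in each list, SCARB2 had 2 in shALKBH5 and 1 in shCtrl, and CD36 had 1 in shALKBH5 and 0 in shCtrl. These numbers depended on the peak threshold. With only peaks of at least 2-fold enrichment and an FDR of at most 0.01, COLEC12 had 3 peaks in shALKBH5 and 2 in shCtrl, the reverse order, SCARA5 had 2 in each list, and SCARA3 had 2 in shALKBH5 and 3 in shCtrl. Of the 18 shCtrl peaks, 3 did not reach an FDR under 0.05, 1 of COLEC12 and 2 of SCARA5, and all 14 shALKBH5 peaks did.

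In COLEC12 the longest 3' UTR peaks of the lists lay over the same stretch with different enrichment. The shALKBH5 peak at chr18:319344-335147 had a fold enrichment of 26.9 (log10 p -6.53), above 97.7% of the peaks of its list. The shCtrl peak inside it, at chr18:319644-331760, had a fold enrichment of 4.72 (log10 p -33.5). The shALKBH5 peak was thus more enriched, but with the weaker p, and the COLEC12 input behind it was 0.0607 FPKM against 1.19 FPKM in shCtrl cells. Upstream, a shCtrl peak at chr18:334727-348132 had a fold enrichment of 7.78 (log10 p -98.1) where the shALKBH5 list had separate peaks at chr18:335207-346391 (5.72) and chr18:346451-347260 (13.5). Small shCtrl peaks at chr18:318565-318685 (4.68) and chr18:333079-333199 (1.89) completed the gene, with one at chr18:319464-319554 (2.98) that did not reach an FDR under 0.05. The table of differential peaks held a COLEC12 peak at chr18:319584-333109. COLEC12 was chosen in part by this entry, so the difference between the 3' UTR peaks of the lists is a description only. The part that input level plays in the fold enrichment was not tested.

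SCARA3 was enriched over the same region in both lists. The shCtrl peak at chr8:27658524-27671495 had a fold enrichment of 10.9 (log10 p -139), and the shALKBH5 peak at chr8:27659509-27671376 one of 9.49 (log10 p -7.85). Just upstream the shALKBH5 list held a separate exonic peak at chr8:27658554-27659151 (fold enrichment 5.07), which the shCtrl peak also covers. Further downstream, a 3' UTR peak was in both lists, at chr8:27672241-27672987 in shCtrl (fold enrichment 3.11) and at chr8:27672570-27672719 in shALKBH5 (2.45). SCARA3 peaks listed in shCtrl without overlap in shALKBH5 were a 5' UTR peak at chr8:27633868-27634107 (fold enrichment 7.66) and 3' UTR peaks at chr8:27671913-27672182 (1.80) and chr8:27676627-27676776 (11.5). The last had a weak log10 p of -2.44. Neither of these 3' UTR peaks met both a 2-fold enrichment and an FDR of at most 0.01. SCARA3 had no entry among the differential peaks, and the input levels behind its main peaks were 0.382 FPKM in shALKBH5 and 4.69 FPKM in shCtrl cells.

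**Figure D4:**
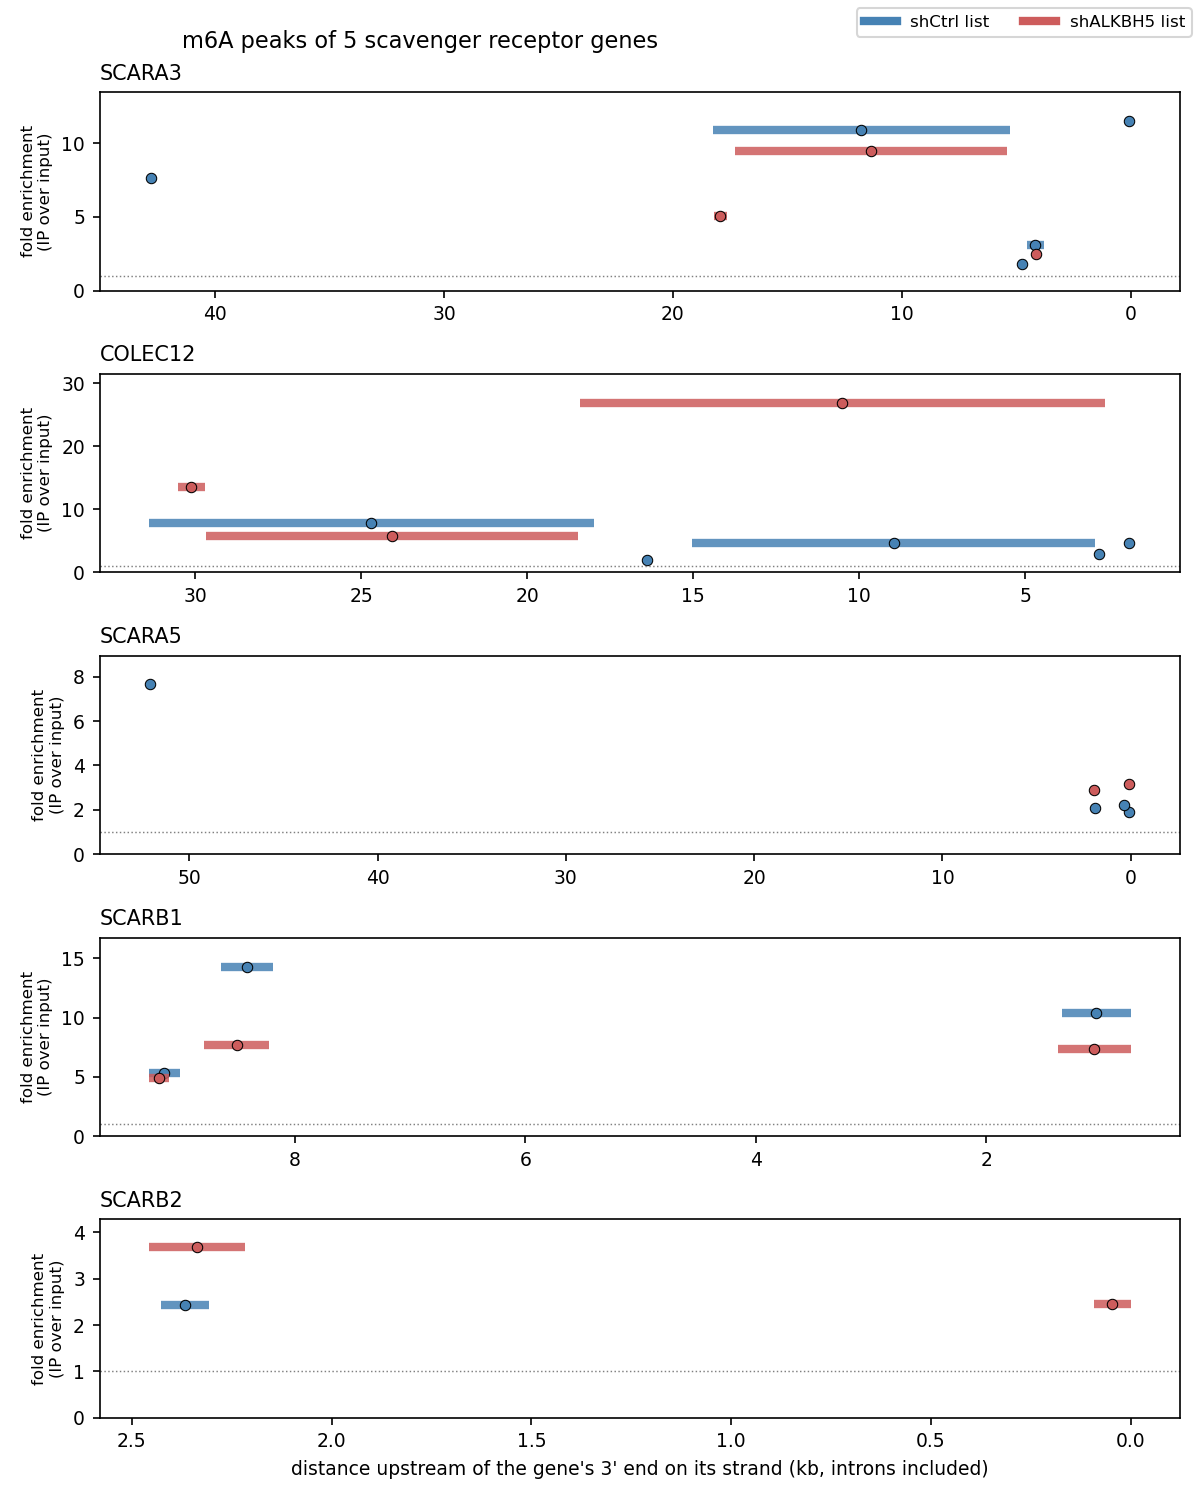
m6A peaks of 5 scavenger receptor genes in the shCtrl (blue) and shALKBH5 (red) lists, with the distance from the gene's 3' end in kb, introns included, on the horizontal axis and fold enrichment of IP over input on the vertical axis. Bars are peak spans, points their centres, and the dotted line a ratio of 1. The COLEC12 peak near the 3' end reached 26.9 in shALKBH5 against 4.72 in shCtrl, while the main SCARA3 peaks had 9.49 and 10.9. COLEC12 was chosen in part by its entry among the differential peaks.

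SCARA5 carried weak peaks near its 3' end in both lists. In shALKBH5 these lay at chr8:27869883-27870033 (fold enrichment 3.15) and chr8:27871683-27871983 (2.89), and in shCtrl at chr8:27869943-27870033 (1.92), chr8:27870153-27870303 (2.23) and chr8:27871713-27871833 (2.06). An exonic peak at chr8:27921928-27922048 (fold enrichment 7.66) was in the shCtrl list only. All SCARA5 peaks in the 3' UTR were under the median fold enrichment of their list.

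By log10 p, the 3' UTR peaks of SCARB1 were the strongest of the 6 genes. They lay at chr12:124777603-124778231 in shALKBH5 (fold enrichment 7.38, log10 p -445) and at chr12:124777603-124778201 in shCtrl (10.4, log10 p -331). An intronic SCARB1 peak had a fold enrichment of 7.68 in shALKBH5 and 14.3 in shCtrl, and an exonic one 4.90 and 5.36. All 3 were thus less enriched in the shALKBH5 list, while the SCARB1 transcript was higher there, and the 3' UTR peak was among the differential peaks. The SCARB2 3' UTR peak had the opposite order, with a fold enrichment of 3.69 (log10 p -35.2) at chr4:76160954-76161194 in shALKBH5 and 2.44 (log10 p -6.22) at chr4:76161044-76161164 in shCtrl, and it too was among the differential peaks. SCARB2 had a further shALKBH5 peak at its 3' end, chr4:76158737-76158827 (fold enrichment 2.45). The only CD36 peak, in shALKBH5, spanned 31441 bp at chr7:80646878-80678318 with a fold enrichment of 14.7 (log10 p -3.29), on a transcript listed at 0 in 2 of the 3 shALKBH5 input libraries.

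The genes that work beside these receptors were taken from lists, and each list is given by its counts beside the 61.0% of all tested genes that passed and their median log2 fold change of 0.09. The list of scavenger receptors of other classes also held the class A receptors MSR1 and MARCO. In that list 8 of 18 genes were tested, with 2 higher, 2 lower and a median log2 fold change of -0.08. CD68, a lysosomal scavenger receptor of class D, rose from 16.2 ± 1.24 to 40.4 ± 2.06 FPKM (SD, n = 3, log2 fold change 1.32, limma adjusted p = 4.447e-06), while MSR1, the classical class A receptor, was at 0.326 FPKM in both groups and was not tested. Of 14 tested lipoprotein receptors, 1 was higher and 6 lower (median -0.15). Of 3 tested collectins and C-type lectin relatives of COLEC12, 1 was higher, CLEC11A, and none lower (median 0.01, limma).

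The ligand and partner genes of the class B receptors differed in their counts. Of 12 tested CD36 ligands and partners, 2 were higher and 7 lower, with a median log2 fold change of -0.28. The caveolin gene CAV1 fell from 51.1 ± 3.89 to 11.2 ± 1.29 FPKM (log2 fold change -2.19, limma adjusted p = 2.182e-06) and the tetraspanin gene CD9 from 13.7 ± 0.167 to 3.77 ± 0.25 FPKM (-1.84, limma adjusted p = 8.445e-07), in cells where CD36 itself was near 0. Of 16 tested genes of fatty acid uptake and binding, 8 were higher and 5 lower (median 0.15). Of 7 tested SCARB1 partners, 5 were higher, as SCARB1 was, and 1 lower (median 0.27). Among them GRAMD1B, which moves cholesterol from the plasma membrane to the endoplasmic reticulum, rose from 11.0 ± 0.216 to 43.7 ± 0.505 FPKM (log2 fold change 1.99, limma adjusted p = 1.630e-07).

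Of 15 tested SCARB2 partners, 2 were higher and 5 lower (median -0.11). The mannose 6-phosphate receptor gene M6PR rose from 33.1 ± 2.03 to 89.4 ± 3.69 FPKM (log2 fold change 1.43, limma adjusted p = 1.451e-06), and the lysosomal protease gene CTSB fell from 40.5 ± 1.41 to 19.0 ± 0.428 FPKM (-1.09, limma adjusted p = 1.494e-06). Of 8 tested genes of the SCARA5 ligand and iron uptake, 2 were higher and 1 lower (median 0.17). The ferritin heavy chain gene FTH1 fell by 0.77 on the log2 scale (limma adjusted p = 2.432e-05), while the light chain gene FTL, whose product SCARA5 binds, was at 0.15 (limma adjusted p = 0.0726). Of 17 oxidative stress genes, listed beside SCARA3, 2 were higher and 8 lower (median -0.18). Among the lower was the glutathione peroxidase gene GPX4, which fell from 64.4 ± 4.06 to 23.8 ± 1.36 FPKM (-1.43, limma adjusted p = 2.182e-06).

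**Figure D5:**
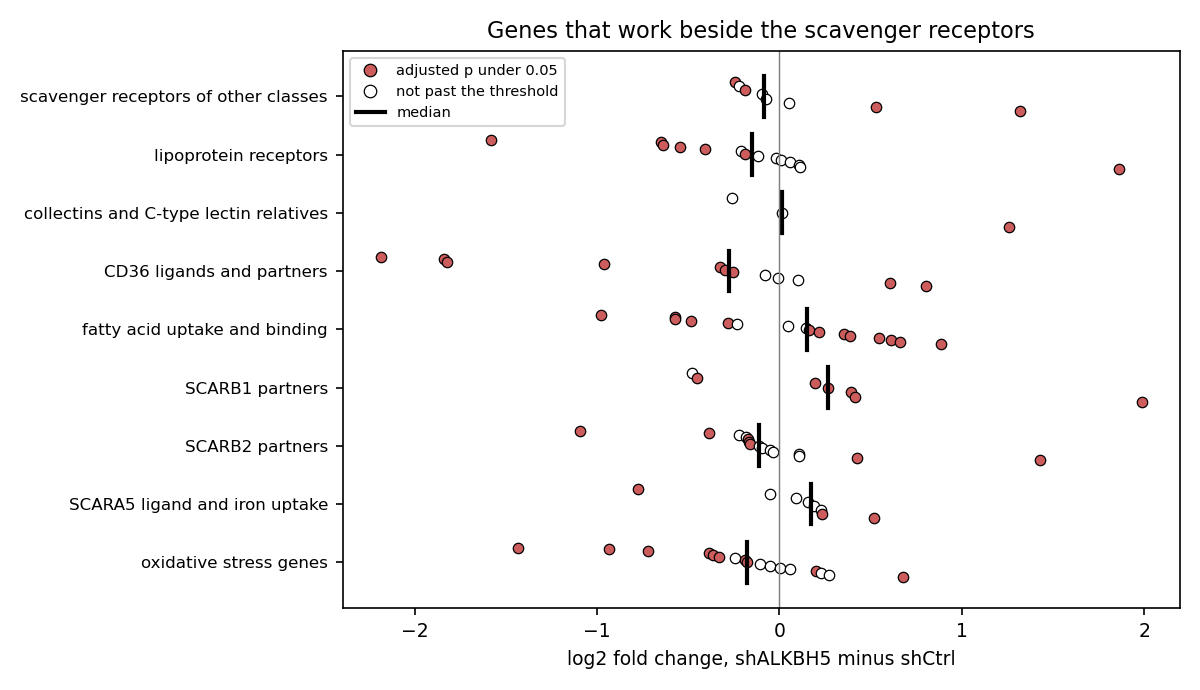
Log2 fold change (shALKBH5 minus shCtrl) of each tested gene in 9 lists of genes that work beside the scavenger receptors, 1 row per list. Filled points passed a limma adjusted p of 0.05, open points did not, and the black bar is the median, which lies between -0.28 for CD36 ligands and partners and 0.27 for SCARB1 partners.

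Scavenger receptors are also read as macrophage genes, so cell type markers were set beside them. The melanoma marker SOX10 was at 181 FPKM in shALKBH5 and 184 FPKM in shCtrl cells, while the pigment genes TYR, TYRP1, DCT and PMEL were under the test minimum. Of 14 melanoma markers 9 were tested, 4 higher and 3 lower (median log2 fold change 0.02), and their summed level was 482 to 487 FPKM in shALKBH5 and 472 to 504 FPKM in shCtrl libraries. S100B rose from 32.9 to 82.1 FPKM and NGFR fell from 34.7 to 5.66 FPKM (limma adjusted p = 1.009e-06 and 2.396e-07). Of 13 macrophage markers 9 had values, and the 3 that were tested, CD68, LYZ (4.82 against 0.874 FPKM) and ADGRE1, were all higher in shALKBH5 cells by limma. The summed macrophage marker level was 51.8 to 56.2 FPKM in shALKBH5 against 23.3 to 26.0 FPKM in shCtrl libraries. Most of it was CD68 alone, at 40.4 and 16.2 FPKM. MSR1, CSF1R, CD14, ITGAM, SPI1 and CD163 were low in both groups. The highest of these was MSR1 at 0.326 FPKM in each group, followed by CD14 at 0.168 and 0.111 FPKM. The other 4 markers, PTPRC, TYROBP, AIF1 and MARCO, were not analysed here. Endothelial markers, 1 higher and 1 lower of 2 tested among 10, summed to 11.6 to 12.5 and 11.8 to 13.6 FPKM, most of it TIE1 (7.78 and 10.1 FPKM, limma adjusted p = 0.00566) and KDR (3.76 and 2.16 FPKM, limma adjusted p = 1.416e-04), with PECAM1 and CDH5 near 0. Fibroblast markers, 1 higher (LUM), 1 lower (PDGFRB, from 7.25 to 2.73 FPKM) and 1 not past the threshold of 3 tested among 10, summed to 6.07 to 7.44 and 9.42 to 10.3 FPKM. The part of these markers in the receptor differences was not tested.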

How the data were processed

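The authors deposited FPKM values per gene for the 6 input libraries, made with an aligner, counter and annotation not given in the sources used here. The authors deposited, per group, a list of m6A peaks with a fold enrichment (a ratio of IP over input) and with log10 p and log10 FDR, treated as a score because some are minus infinity. The pooling of replicates and the peak caller are not given in the sources used here. The labels list mm10 as the build, but gene positions matched GRCh38.p14 within 100 kb for 21490 of 21699 symbols (99.0%), with all 6 receptor genes among them. Peak starts count from 0 in the lists and were changed to count from 1. The deposited tables also hold the authors' fold changes, p-values and FDRs between groups, which were not used; from the table of differential peaks only positions were taken.

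Samples were grouped by their titles. FPKM do not keep read counts, and low values showed no steps: among genes under 0.1 FPKM, at most 0.743% (shALKBH5) and 1.02% (shCtrl) had the same ratio of replicate 1 to replicate 2. Depth is thus unknown, and counting intervals are not given. At most 0.123% of tested genes had equal values in any pair of libraries, so each counted as 1 replicate. limma 3.58.1 in R 4.3.3 (lmFit, eBayes with trend, two-sided) was fitted to log2(FPKM + 0.1) of all 12985 genes that averaged 0.5 FPKM or more, in place of the count model that the study names, and was tested on simulated data. Fold changes are on that scale and understate the change of low genes. Other steps used Python 3.11.15, pandas 2.3.3, numpy 2.4.6 and matplotlib 3.10.9.

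The receptor genes, the gene lists and the tests were chosen with earlier results of these data known. Named by rule were the 6 receptor genes and ALKBH5, list genes past the threshold with at least 5 FPKM in a group and an absolute log2 fold change of at least 1 (at most 4 a list), the 4 genes closest in profile to SCARA3 and to COLEC12, and the nearest tested gene on each side of each receptor gene, some of which are not reported here. Other genes given by name were chosen after their values were seen. CD68, MSR1 and LRP1 are among the genes that sit in more than 1 list. Alternatives were other pseudocounts, filters and scaling, a replicate block, eBayes without trend, leaving out each library, stricter peaks and a reciprocal overlap. Peak sequences were not analysed here.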

Additional observations from a re-analysis of the deposited data

How the results depend on the processing

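The log2 fold changes of SCARA3 and COLEC12 kept their direction under every alternative but moved with the pseudocount, by construction, since their shALKBH5 levels are near or below it. With a pseudocount of 0.01 they were -3.61 for SCARA3 and -4.10 for COLEC12, and with a pseudocount of 1 they were -2.04 and -1.04. Leaving out each library in turn gave -3.42 to -3.17 for SCARA3 and -3.10 to -2.93 for COLEC12, and at a filter of 1 FPKM COLEC12 had no value. SCARA5 (0.73 to 1.27, limma adjusted p 0.0001244 to 0.00147), SCARB1 (0.29 to 0.39, 0.0001499 to 0.00174) and SCARB2 (0.57 to 0.76, 0.0001832 to 0.00174) stayed higher in shALKBH5 cells and past the threshold under all 13 alternatives each. CD36 could be fitted only without the filter on low values (limma adjusted p = 0.948), and its fold change is not given at these levels. Genes that passed the test numbered 6871 to 8231 over the alternatives against 7917, and list genes 59 to 74 against 72. Of the 32 peaks of the receptor genes, 24 met a fold enrichment of at least 2 with an FDR of at most 0.01, 13 in shALKBH5 and 11 in shCtrl, against 14 and 18 for all peaks, so the order of the groups turned. Over all peaks 66.6% of the shALKBH5 and 68.4% of the shCtrl list met it. For COLEC12 it turned from 3 and 5 to 3 and 2.

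Replicates share numbers across groups. The deviations of same-numbered libraries from their group means correlated at 0.0181, -0.0462 and 0.0591. Differently numbered libraries had values of like size, -0.0619 to 0.0439, so no pairing by number was seen. Whether same-numbered libraries were prepared together is not given in the sources used here. With the replicate block, SCARA5, SCARB1 and SCARB2 had limma adjusted p of 0.00147, 0.00174 and 0.00174, and 7271 genes passed. With 3 libraries per group an exact permutation test of a single gene cannot give a two-sided p below 0.1. Low FPKM in shALKBH5 cells limit the precision of the SCARA3 and COLEC12 ratios, and peaks have no values per library here.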

Other observations

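Numbers of m6A peaks in the shALKBH5 and shCtrl lists were compared over all tested genes in bands of expression change, a comparison chosen after the values of the receptor genes were seen and made on all listed peaks. Of 134 tested genes with a log2 fold change under -2, which include SCARA3 and COLEC12, 23.9% had fewer peaks in the shALKBH5 than in the shCtrl list and 29.9% had more. Of 714 genes between -2 and -1, 27.3% had fewer and 24.9% more. Of 11388 genes between -1 and 1, which include SCARB1 and SCARB2, 23.0% had fewer and 28.1% more. Of 648 genes between 1 and 2, which include SCARA5, 24.7% had fewer and 27.2% more, and of 101 genes over 2, 16.8% had fewer and 25.7% more. No test was made because each group has 1 list.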
